A study of Homo sapiens with 10 samples.

Results

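The genes described here are 36 members of the unfolded protein and ATF4 stress response, chosen by name from 58302 genes listed by Ensembl identifier. They were read in 2 arms, 21 genes of the ATF4 amino acid arm and 15 genes of the ER chaperone arm, and all 36 symbols were found in the tables. RNA-Seq was carried out on 10 libraries of 3 human liver cancer lines, with 1 library per condition. SK-hep1 cells were a mock control and transfectants that overexpressed PSPC1, PSPC1 with PTK6, the tyrosine-to-phenylalanine mutant PSPC1-Y523F, or PSPC1-Y523F with PTK6. Mahlavu cells were a mock control and transfectants labelled for the C-terminal fragment of PSPC1 (PSPC1-CT131) and for a mutant of its nuclear localization sequence (Mut-NLS-CT131). Huh-7 cells were an untreated control and cells given 10 ng/ml HGF for 48 h. PSPC1 is a paraspeckle RNA-binding protein and PTK6 is a nonreceptor tyrosine kinase. Plasmids were delivered by transfection, PSPC1 from an HA-tagged vector and CT131 as an EGFP fusion. Whether a library came from a pool or from a single clone is not given in the sources used here. With 1 library per condition there is no replicate check, so no test and no p-value is given, and the intervals below cover counting error alone. SK-hep1 values are given in a fixed order, mock first, then wild-type PSPC1 alone, wild-type PSPC1 with PTK6, Y523F alone and Y523F with PTK6, and Mahlavu values as mock, PSPC1-CT131, Mut-NLS-CT131.

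When unfolded proteins collect in the endoplasmic reticulum (ER), 3 sensors respond. ATF6 and the XBP1 protein made after IRE1 splices its mRNA raise the genes of lumenal chaperones, co-chaperones and ER-associated degradation. The kinase PERK phosphorylates the translation factor eIF2 alpha, as do GCN2, PKR and HRI under other stresses, and this slows protein synthesis while ATF4 is translated. ATF4 then raises genes of amino acid uptake, serine and asparagine synthesis, and the factors DDIT3 (CHOP), ATF3 and TRIB3. ATF4 and XBP1 are therefore set largely after transcription, by translation and by splicing, which reads counted per gene do not show. Secretory liver cells carry a heavy ER load, and hepatocytes are a tissue where this response has been studied in depth.

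Promoters of some members hold the letters of the elements these factors are known to bind, and stretches that carry them are shown as a description of sequence. Motifs were not set against the changes in level, and whether they bear on those changes was not tested. RefSeq windows of 250 bases before to 50 after each gene start were given for 31 of the 36 members on GRCh38.p14, and entries for NUPR1, PSPH, SHMT2, ALDH1L2 and SLC7A11 were missing. Both strands were searched. The ER stress response element (ERSE), CCAAT and CCACG with 9 bases between them, was in 5 of 15 windows of the ER arm (HSPA5, HSP90B1, CALR, XBP1 and CRELD2), in 0 of 16 of the ATF4 arm, and in 0.0769% of all 35116 promoters. Its variant ERSE-II, ATTGG and CCACG with 1 base between them, which was added to the search after the values had been seen, was in HYOU1, SDF2L1 and HERPUD1, 3 of 15 windows against 0.0541% of all promoters and 0 of 16 in the ATF4 arm. The motif CCACGTG was in 3 of 15 windows of the ER arm (HSP90B1, DNAJB9 and HERPUD1), in 1 of 16 of the ATF4 arm (ATF4) and in 4.20% of all promoters. TGATGNAA, the core of the C/EBP-ATF response element (CARE), was in 4 of 16 windows of the ATF4 arm (ATF3, ASNS, SLC3A2 and CHAC1), in 1 of 15 of the ER arm (HERPUD1) and in 3.62% of all promoters. A match describes letters and not a bound site. Capitals mark the motif, and the stretches run 5′ to 3′ along the gene and lie before its RefSeq start.
HSPA5, ERSE, chr9:125241361-125241439, minus strand: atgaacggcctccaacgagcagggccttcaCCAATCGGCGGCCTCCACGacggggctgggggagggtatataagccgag
HSP90B1, first ERSE, chr12:103930211-103930239, plus strand: cctgaCCAATCGGAAGGAGCCACGcttcg
HSP90B1, second ERSE, reversed, chr12:103930316-103930344, plus strand: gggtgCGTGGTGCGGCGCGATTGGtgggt
CALR, ERSE, reversed, chr19:12938359-12938432, plus strand: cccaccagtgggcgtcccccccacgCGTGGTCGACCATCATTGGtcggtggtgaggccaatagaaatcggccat
XBP1, ERSE, chr22:28800598-28800626, minus strand: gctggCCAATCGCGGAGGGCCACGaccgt
CRELD2, ERSE, reversed, chr22:49918524-49918602, plus strand: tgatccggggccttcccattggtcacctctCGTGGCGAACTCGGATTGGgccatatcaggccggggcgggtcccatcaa
HERPUD1, ERSE-II, chr16:56932020-56932040, plus strand: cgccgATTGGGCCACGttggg
SDF2L1, ERSE-II, reversed, chr22:21642084-21642154, plus strand: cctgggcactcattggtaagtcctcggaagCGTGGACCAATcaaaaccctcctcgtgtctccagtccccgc
HYOU1, first ERSE-II, reversed, chr11:119057350-119057420, minus strand: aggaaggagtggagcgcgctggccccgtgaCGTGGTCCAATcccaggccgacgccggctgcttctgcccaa
DNAJB9, first CCACGTG, chr7:108569795-108569811, plus strand: gttttCCACGTGcgcgt
ATF3, CARE, chr1:212565186-212565253, plus strand: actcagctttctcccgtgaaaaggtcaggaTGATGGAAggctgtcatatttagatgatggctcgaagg
ASNS, CARE, chr7:97872464-97872481, minus strand: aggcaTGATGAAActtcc
CHAC1, CARE, reversed, chr15:40953257-40953274, plus strand: tgccgTTGCATCActcct

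Reads on genes numbered 15245935 to 24278662 per library. PSPC1, the overexpressed gene, had 0, 209, 930, 71 and 2539 reads in the SK-hep1 libraries. PTK6 had 277, 307 and 230 reads in the SK-hep1 libraries without the PTK6 label and 1060 and 679 in those with it. In Mahlavu cells PSPC1 had 1582 reads in mock and 899 and 632 reads in the libraries labelled PSPC1-CT131 and Mut-NLS-CT131, so these reads did not show the added fragment and both libraries are named by their labels only. The 10 hepatocyte markers summed to 8.19 to 42.5 FPKM in the SK-hep1 and Mahlavu libraries, where ALB, TTR, TF and FGB were listed at 0 in all 8 and SERPINA1, at 7.97 to 42.3 FPKM, was the single marker at 1 FPKM or more. They summed to 30565 and 30231 FPKM in the Huh-7 libraries. The 8 endothelial markers summed to 0.924 to 7.06 FPKM. The 10 mitochondrial transcripts summed to 4254 FPKM in SK-hep1 mock and 6579 to 16123 FPKM in its transfectants, and their part in the changes described below was not tested. Between 2 bulk libraries, a gene that is lower in every cell and a gene that is expressed in fewer cells cannot be told apart.

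FPKM are reads scaled for gene length and library size. Fold changes are log2 ratios of quantile-normalized FPKM + 1 between 2 libraries, for genes that averaged 1 FPKM or more across both, and a member is called higher or lower from 2-fold on. Against the control of its line, 19 of the 36 members were called in at least 1 of 7 comparisons. The share of all genes called in at least 1 was not computed, so this count has no baseline, and the shares below are per comparison. In SK-hep1 cells with PSPC1, CHAC1 was the 1 member called, and it was lower, where 3.38% of 12411 genes kept were called higher and 2.19% lower. PSPC1/PTK6 had 2 members higher (STC2 and CEBPB) and 3 lower (PHGDH, SESN2 and PSPH), beside 5.09% and 3.32% of all genes, or 1001 higher and 240 lower genes in FPKM as deposited, where the median gene lay at 0.15. PSPC1-Y523F had 0 members higher and 4 lower (DDIT3, ATF3, PHGDH and PSPH), beside 2.83% and 2.46%. PSPC1-Y523F/PTK6 had 0 higher and 5 lower (PHGDH, DDIT3, HSP90B1, HSPA5 and ATF3), beside 3.44% and 1.59%. In Mahlavu cells the library labelled PSPC1-CT131 had 3 members higher (CHAC1, CRELD2 and DDIT4) and 2 lower (SLC7A5 and SLC3A2), beside 3.17% and 3.16%. In FPKM as deposited the median gene of that comparison lay at −0.24, with 195 genes higher and 1001 lower, and 2 members in place of 5 were called. The library labelled Mut-NLS-CT131 had 8 higher and 2 lower, beside 3.16% and 3.26% of all genes, the most members called in any of these comparisons. HGF called 0 members in Huh-7 cells, where 0.428% of genes were called higher and 0.393% lower. The comparisons of a line share its mock library, so a low or high value in that library enters all of them.

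**Figure D1:**
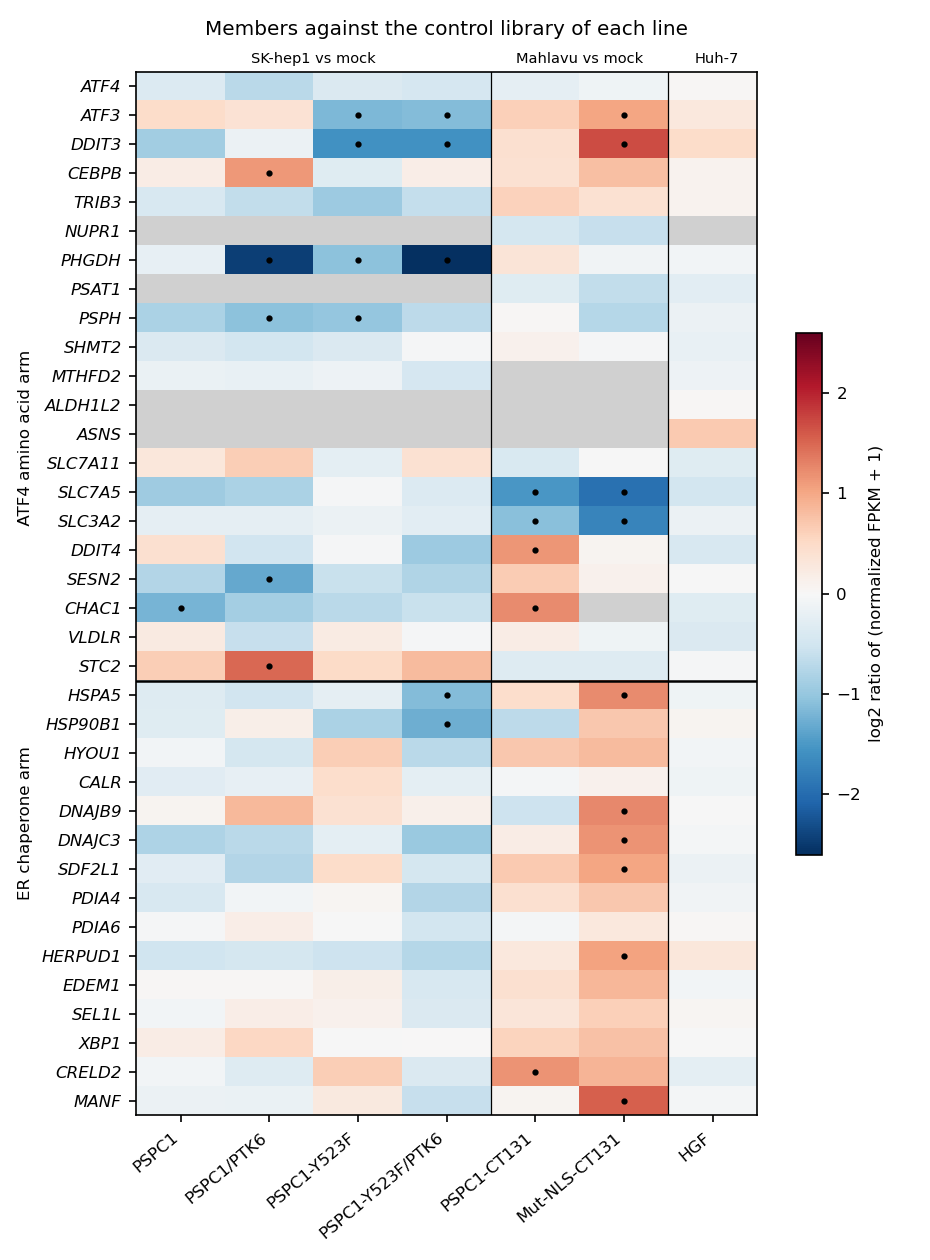
Log2 ratio of quantile-normalized FPKM + 1 for the 36 members (rows, the ATF4 amino acid arm above the line) in 7 comparisons with the control library of each line (columns); red is higher, blue is lower, grey is below the expression minimum, and a dot marks a change of at least 2-fold. The Mut-NLS-CT131 column is red in all 15 rows of the ER chaperone arm, and PHGDH is darkest blue in both columns with PTK6.

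The 2 arms differed in some comparisons and moved alike in others. In the 4 SK-hep1 transfectants, 11, 13, 15 and 14 of the 17 ATF4-arm members kept lay below mock, in the order above, beside 50.8% to 54.7% of all genes. Their median log2 fold changes were −0.24, −0.50, −0.37 and −0.44, where the medians of all genes lay between −0.04 and −0.01. The ER arm had 12, 9, 6 and 13 of 15 members below mock in the same order, with medians of −0.15, −0.17, 0.11 and −0.47. In Mahlavu cells the ATF4 arm had medians of 0.15 in the library labelled PSPC1-CT131 and −0.09 in that labelled Mut-NLS-CT131, and the ER arm had medians of 0.32 and 0.86. With HGF both arms lay near 0, at −0.10 and −0.06. Over the SK-hep1 libraries, 9 of 17 kept members of the ATF4 arm and 5 of 15 of the ER arm spanned at least 2-fold from the lowest to the highest library, beside 22.7% of all genes. Over the Mahlavu libraries the counts were 6 of 18 and 8 of 15, beside 15.1% of all genes.

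ATF4 itself (ENSG00000128272, chromosome 22, 39519695 to 39522685), the transcription factor that heads the first arm, stayed under 2-fold in all comparisons. It was at 208, 156, 124, 163 and 152 FPKM in the SK-hep1 libraries, at 149, 127 and 137 in the Mahlavu libraries, and at 271 and 274 in Huh-7 without and with HGF. The mock library was the highest of its line in both SK-hep1 and Mahlavu cells, and PSPC1/PTK6 was the lowest of the SK-hep1 libraries, with a log2 fold change of −0.69.

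DDIT3 (CHOP, ENSG00000175197, chromosome 12, 57516588 to 57520517) is the proapoptotic C/EBP family factor induced through ATF4. Its levels were 21.7, 10.2, 21.7, 5.65 and 5.52 FPKM in the SK-hep1 libraries, 15.0, 15.9 and 44.0 FPKM in the Mahlavu libraries, and 12.1 and 17.2 FPKM in Huh-7. Both Y523F libraries lay lowest in SK-hep1 cells, with or without PTK6, and the library labelled Mut-NLS-CT131 stood alone in Mahlavu cells. The log2 fold changes were −1.57 (read ratio −2.26 to −1.64) in PSPC1-Y523F, −1.57 (−2.27 to −1.69) in PSPC1-Y523F/PTK6 and 1.69 (1.36 to 1.74) in Mut-NLS-CT131. Intervals in parentheses here and below are exact 95% Clopper-Pearson intervals of the log2 ratio of reads per library total, before quantile normalization, and can lie off the normalized value. Exons of other genes cover 39.6% of the exon bases of DDIT3, in part those of MARS and MBD6, and how shared reads were assigned is not given in the sources used here.

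ATF3, a stress-induced bZIP factor, was also lowest in both Y523F libraries of SK-hep1 cells. Unlike DDIT3, which lay below mock with PSPC1 alone, ATF3 lay above mock there. It had 19.7 FPKM in mock, 27.1 in PSPC1 and 28.5 in PSPC1/PTK6, and 7.06 and 7.27 in PSPC1-Y523F and PSPC1-Y523F/PTK6. In Mahlavu cells it had 4.28 FPKM in mock, 5.07 in PSPC1-CT131 and 8.69 in Mut-NLS-CT131, and in Huh-7 cells 8.35 without and 10.2 with HGF. Log2 fold changes were −1.18 (−1.73 to −1.24) and −1.12 (−1.68 to −1.21) in the Y523F libraries and 1.03 (0.69 to 1.36) in Mut-NLS-CT131, which moved as DDIT3 did in the same libraries.

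CEBPB, a C/EBP factor that pairs with ATF4, peaked in PSPC1/PTK6. Its levels in the SK-hep1 libraries, in the order used above, were 102, 116, 224, 80.8 and 114 FPKM. The log2 fold change in PSPC1/PTK6 was 1.14 (1.09 to 1.19). Mahlavu levels were 100.4, 129 and 169 FPKM, and Huh-7 levels were 30.04 and 32.1 FPKM. TRIB3, a pseudokinase that dampens ATF4 and CHOP, ranged from 43.1 to 87.7 FPKM in SK-hep1 cells with mock highest, from 60.2 to 85.2 in Mahlavu and from 80.2 to 85.1 in Huh-7, and was called nowhere.

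NUPR1, a small stress-induced chromatin protein, was high in Mahlavu cells alone. It had 3782, 2260 and 2112 reads in the Mahlavu libraries, 8, 10, 81, 1 and 0 reads in the SK-hep1 libraries, and 17 and 29 reads in Huh-7, with 75.3 FPKM in Mahlavu mock and at most 1.53 FPKM outside that line. Of the SK-hep1 libraries, PSPC1/PTK6 held 81 of the 100 reads, and no SK-hep1 comparison kept the gene.

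PHGDH (ENSG00000092621, chromosome 1, 119648411 to 119744226) makes the first step of serine synthesis from glycolysis, and it showed the widest change of all members. In SK-hep1 cells it was at 87.4 FPKM in mock and 72.9 in PSPC1, at 39.5 in PSPC1-Y523F, and at 16.7 and 11.4 in PSPC1/PTK6 and PSPC1-Y523F/PTK6. Both libraries with PTK6 lay below all libraries without it. Against mock the log2 fold changes were −2.45 (−2.53 to −2.25) in PSPC1/PTK6, a 5.46-fold lower level, −1.06 (−1.25 to −1.04) in PSPC1-Y523F and −2.59 (−3.09 to −2.78) in PSPC1-Y523F/PTK6, a 6.02-fold lower level. Against the same PSPC1 form without PTK6 they were −2.24 (−2.27 to −1.99) for wild type and −1.53 (−1.96 to −1.62) for Y523F. Mahlavu levels were 73.6, 88.4 and 68.2 FPKM and Huh-7 levels 257 and 240.0 FPKM, with no call in either line.

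PSPH, which takes the phosphate off phosphoserine in the last step of the pathway, was highest in mock among the SK-hep1 libraries. Its levels there were 20.9, 10.5, 10.8, 8.66 and 11.2 FPKM, and all 4 transfectants lay close together. The log2 fold changes reached −1.07 (−1.18 to −0.73) in PSPC1/PTK6 and −1.01 (−1.53 to −1.02) in PSPC1-Y523F. Mahlavu levels were 46.4, 42.9 and 27.4 FPKM and Huh-7 levels 165 and 147 FPKM. SHMT2, the mitochondrial serine hydroxymethyltransferase, ranged from 154 to 221 FPKM in SK-hep1, from 205 to 230 in Mahlavu and from 339.8 to 391 in Huh-7 and was called nowhere.

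PSAT1 (ENSG00000135069, chromosome 9, 78297143 to 78330093), the aminotransferase between PHGDH and PSPH, was at or near 0 in SK-hep1 cells. It had 0, 0, 0, 3 and 0 reads there, 3038, 2005 and 1650 reads (74.4, 56.3 and 48.0 FPKM) in the Mahlavu libraries, and 190.0 and 154 FPKM in Huh-7. Pooled over libraries, its reads per library total were 4027-fold higher in Mahlavu than in SK-hep1, with a 95% interval from 1377 to 19532.

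MTHFD2 (ENSG00000065911, chromosome 2, 74198562 to 74217565), the mitochondrial folate enzyme that follows SHMT2, showed the reverse. SK-hep1 cells had 58.3, 49.9, 52.5, 51.9 and 39.4 FPKM, the Mahlavu libraries held 0, 2 and 0 reads, and Huh-7 had 38.6 and 35.0 FPKM. The pooled ratio was 2391-fold toward SK-hep1 (662 to 19750). Exons of other genes, among them SLC4A5, cover 33.2% of its exon bases, in every library alike. ALDH1L2, the mitochondrial enzyme that oxidizes formyl-tetrahydrofolate, had 7.197 and 7.362 FPKM in Huh-7 and 0 to 6 reads in the other 8 libraries.

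SLC7A5 (LAT1, ENSG00000103257, chromosome 16, 87830023 to 87869488) and SLC3A2 (4F2hc) are the light and heavy chain of a leucine transporter, and both were called lower in both Mahlavu transfectants. SLC7A5 was at 754 FPKM in mock, 290.1 in PSPC1-CT131 and 216 in Mut-NLS-CT131, with log2 fold changes of −1.52 (−1.40 to −1.35) and −1.95 (−1.83 to −1.78). Its partner SLC3A2 was at 585, 303 and 199.5 FPKM in the same libraries, with log2 fold changes of −1.08 (−0.99 to −0.91) and −1.71 (−1.60 to −1.50). These comparisons share the mock library, which was the highest for both genes. In SK-hep1 cells SLC7A5 had 538, 275, 277, 533 and 401 FPKM, with both wild-type PSPC1 libraries lowest and under 2-fold from mock. SLC3A2 varied less in that line, with 468, 394, 378, 423 and 379 FPKM. Huh-7 cells had 33.5 and 23.8 FPKM of SLC7A5 and 197 and 176 FPKM of SLC3A2.

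SLC7A11 (xCT), the cystine-glutamate exchanger that also needs SLC3A2, ranged from 5.77 to 15.3 FPKM in SK-hep1, from 9.95 to 17.1 in Mahlavu and from 8.59 to 10.9 in Huh-7. ASNS, asparagine synthetase and a classical ATF4 target, was low in all lines. It had 7 to 32 reads in the SK-hep1 libraries, 9 to 21 in the Mahlavu libraries and 45 and 80 reads (2.08 and 3.98 FPKM) in Huh-7 without and with HGF, and was kept in the Huh-7 comparison alone. The log2 fold change with HGF was 0.67 (0.39 to 1.49), the widest of any member in that comparison. The annotation places exons of AC079781.5 over 44.6% of its exon bases, and reads that fall on both genes may not have been counted for it.

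Among the stress effectors, STC2, a secreted stanniocalcin, was lowest in SK-hep1 mock and far higher in Mahlavu cells. SK-hep1 levels were 16.4, 25.8, 52.4, 22.8 and 28.2 FPKM. The log2 fold change in PSPC1/PTK6 was 1.498 (1.54 to 1.82). Mahlavu levels were 298, 256 and 244 FPKM and Huh-7 levels 44.0 and 43.0 FPKM.

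SESN2, a leucine sensor that restrains mTORC1, was highest in SK-hep1 mock. It had 20.4, 10.8, 8.55, 12.3 and 9.95 FPKM in the SK-hep1 libraries, 5.67, 6.96 and 5.43 in Mahlavu, and 9.002 and 8.852 in Huh-7. PSPC1/PTK6 was lowest, at a log2 fold change of −1.34 (−1.39 to −1.13).

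CHAC1, the glutathione-degrading cyclotransferase downstream of ATF4, was low throughout. In SK-hep1 cells its levels were 10.7, 3.76, 6.62, 5.52 and 5.94 FPKM with mock highest and PSPC1 lowest, a log2 fold change of −1.21 (−1.84 to −1.19). Mahlavu levels were 1.551, 3.77 and 1.204 FPKM from 49, 104 and 32 reads, and Huh-7 levels were 5.70 and 4.38 FPKM. The library labelled PSPC1-CT131 stood above mock by 1.23 (0.78 to 1.80), and the gene passed the expression minimum there only through that library.

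DDIT4 (REDD1), another inhibitor of mTORC1, was lowest in both SK-hep1 libraries with PTK6. It had 135, 176, 93.3, 132 and 64.8 FPKM in that line. After normalization all 4 transfectants were under 2-fold from mock, Y523F with PTK6 at −0.94, and with GC content and length taken out that library was at −1.04. In Mahlavu cells it had 52.9 FPKM in mock, 107 in PSPC1-CT131 and 53.4 in Mut-NLS-CT131, a log2 fold change of 1.15 (0.91 to 1.12) for PSPC1-CT131. Huh-7 levels were 28.9 and 21.4 FPKM. VLDLR, a lipoprotein receptor, ranged from 0.675 to 1.42 FPKM in SK-hep1, from 3.67 to 4.79 in Mahlavu and from 5.00 to 6.77 in Huh-7. DDIT4-AS1 shares 41.2% of the exon bases of DDIT4, and the library kit does not mark strand.

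In the ER chaperone arm, HSPA5 (BiP, ENSG00000044574, chromosome 9, 125234853 to 125241330) is the main Hsp70 chaperone of the ER lumen and holds the sensors inactive. Its SK-hep1 levels were 662, 525, 439, 557 and 299 FPKM, highest in mock and lowest in PSPC1-Y523F/PTK6. In Mahlavu cells they were 192 FPKM in mock, 274 in PSPC1-CT131 and 442 in Mut-NLS-CT131, and in Huh-7 cells 239.7 and 219 FPKM. The log2 fold change was −1.12 (−1.17 to −1.13) in PSPC1-Y523F/PTK6 and 1.22 (1.18 to 1.23) in Mut-NLS-CT131.

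HSP90B1 (GRP94), the ER Hsp90, had 485, 386, 516, 267 and 195 FPKM in the SK-hep1 libraries. Both Y523F libraries lay below the other 3, and that with PTK6 was lowest, at a log2 fold change of −1.27 (−1.36 to −1.27) against mock. Mahlavu levels were 467 FPKM in mock, 316 in PSPC1-CT131 and 757 in Mut-NLS-CT131, and Huh-7 levels were 776 and 809.5 FPKM. HYOU1 (GRP170), the nucleotide exchange factor of BiP, had 189.9, 174, 130.3, 298 and 110.4 FPKM in the SK-hep1 libraries, highest with Y523F alone and lowest with Y523F and PTK6, and ranged from 120.1 to 203 in Mahlavu and from 159 to 168 in Huh-7. CALR (calreticulin), a lectin chaperone, had the highest level of all members, between 1423 and 2337 FPKM in every library.

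DNAJB9, DNAJC3 and SDF2L1, read as J-domain co-chaperones and partners, were all called higher in the library labelled Mut-NLS-CT131. HYOU1, which also works with BiP, was under 2-fold there, at 0.82. DNAJB9 (ERdj4), which brings BiP to IRE1 and to misfolded proteins, had 15.1, 7.82 and 33.1 FPKM in Mahlavu mock, PSPC1-CT131 and Mut-NLS-CT131, 6.23, 6.31, 14.6, 7.93 and 6.28 FPKM in the SK-hep1 libraries, and 37.1 and 36.4 in Huh-7. DNAJC3 (p58IPK) had 12.6, 11.1 and 25.7 FPKM in Mahlavu, 14.1, 7.08, 9.82, 11.0 and 5.78 in SK-hep1 and 11.6 and 11.1 in Huh-7. SDF2L1 had 70.1, 107 and 134.5 FPKM in Mahlavu, 250.9, 200.6, 144.6, 359.6 and 185.6 in SK-hep1 and 52.2 and 46.5 in Huh-7. Mut-NLS-CT131 was the highest Mahlavu library for all 3 genes, with log2 fold changes of 1.25 (0.95 to 1.304), 1.17 (0.92 to 1.14) and 1.03 (0.83 to 1.05). In FPKM as deposited with 1 added, DNAJC3 and SDF2L1 were under 2-fold from mock.

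The disulfide isomerases PDIA4 and PDIA6 were called nowhere against a control. PDIA4 ranged from 235 to 425 FPKM in SK-hep1, with PSPC1-Y523F/PTK6 lowest, from 279.9 to 462 in Mahlavu and from 339.9 to 371 in Huh-7. PDIA6 ranged from 147 to 228 FPKM in SK-hep1, from 194 to 236 in Mahlavu and from 94.8 to 95.3 in Huh-7.

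Of the genes of ER-associated degradation, HERPUD1, a membrane scaffold of the HRD1 ligase, had 144, 175 and 279.8 FPKM in Mahlavu mock, PSPC1-CT131 and Mut-NLS-CT131, a log2 fold change of 1.05 (0.90 to 1.02) for the last. In SK-hep1 cells it had 125 FPKM in mock and 84.0, 90.4, 85.5 and 70.6 in the transfectants, all below mock and under 2-fold, and in Huh-7 cells 64.2 and 78.4. EDEM1, which trims mannose from misfolded glycoproteins, ranged from 12.3 to 21.9 FPKM in SK-hep1, from 23.8 to 39.6 in Mahlavu and from 47.8 to 50.2 in Huh-7. SEL1L, the HRD1 cofactor, ranged from 23.5 to 40.3, from 36.1 to 51.8 and from 62.7 to 64.4 FPKM in the same lines.

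MANF (ENSG00000145050, chromosome 3, 51385047 to 51389397), a secreted protein that binds BiP, had the largest log2 fold change of the ER arm against a control. It was at 105 FPKM in Mahlavu mock, 108 in PSPC1-CT131 and 282 in Mut-NLS-CT131, a log2 fold change of 1.55 (1.36 to 1.501) for the last, a 2.92-fold higher level. The first 2 libraries were nearly alike and the third stood apart. SK-hep1 levels were 208, 183, 182, 256 and 134 FPKM and Huh-7 levels 44.0 and 42.0 FPKM. CRELD2, another secreted ER stress protein, had 26.4, 51.3 and 45.8 FPKM in Mahlavu, 64.1, 59.3, 52.1, 102 and 45.9 in SK-hep1 and 25.01 and 20.68 in Huh-7. Its log2 fold change was 1.17 (0.82 to 1.09) in PSPC1-CT131, where it was the 1 ER-arm member called, and 0.89 in Mut-NLS-CT131. XBP1, the factor of the IRE1 branch, had 55.8, 61.9, 84.2, 53.9 and 52.8 FPKM in SK-hep1, 56.9, 77.7 and 90.6 in Mahlavu, and 427 and 420.1 in Huh-7, under 2-fold in every comparison.

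In the library labelled Mut-NLS-CT131, all 15 members of the ER arm lay above mock, with log2 fold changes from 0.10 in CALR to 1.55 in MANF, and 6 were called higher (MANF, DNAJB9, HSPA5, DNAJC3, HERPUD1 and SDF2L1). The shares of all genes called higher and lower were 3.16% and 3.26%, as given above. It was the highest of the 3 Mahlavu libraries for 14 of the 15 members in FPKM as deposited, the exception being CRELD2, and 11 of 15 stepped up from mock to PSPC1-CT131 to Mut-NLS-CT131. After quantile normalization these counts were 14 and 10 of 15. The shares of all genes with these orders were not computed. Summed over the arm, FPKM as deposited were 3166 in mock, 3501 in PSPC1-CT131 and 4715 in Mut-NLS-CT131. With FPKM as deposited in place of normalized values, all 15 stayed above mock but 3 in place of 6 were called. On that scale 287 of 13218 genes were called higher and 602 lower, and the median gene lay at −0.09. The ATF4 arm did not move as a block, with DDIT3 and ATF3 called higher, SLC7A5 and SLC3A2 called lower, and 11 of 17 members below mock.

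**Figure D2:**
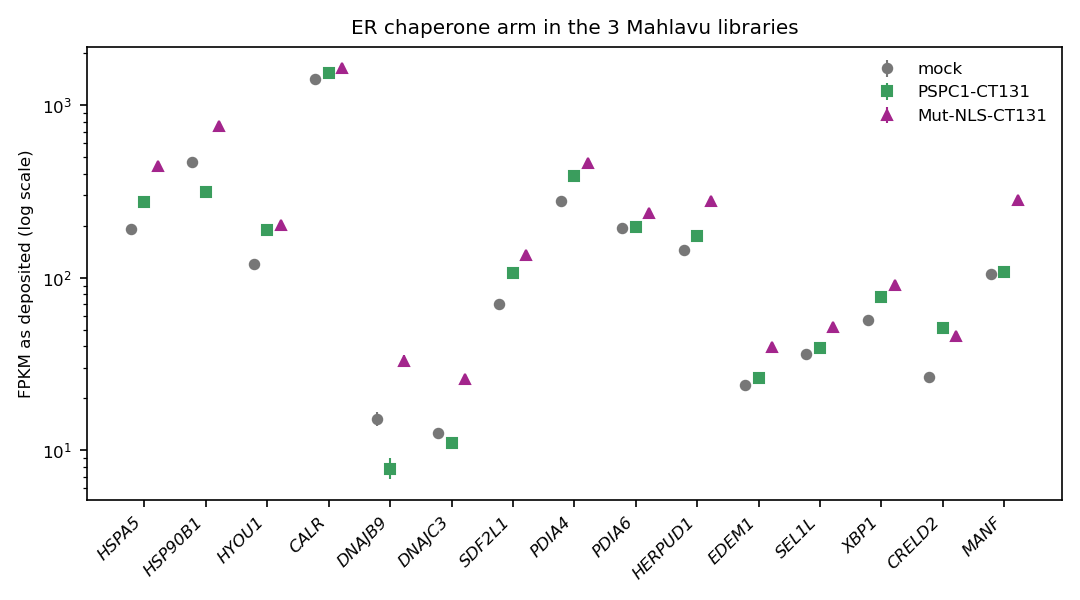
FPKM as deposited (log scale) of the 15 ER chaperone arm genes in the Mahlavu mock, PSPC1-CT131 and Mut-NLS-CT131 libraries, 1 point per library with 95% Wilson intervals of the reads, most of them smaller than the point. The Mut-NLS-CT131 triangles lie highest for 14 genes, and for MANF they reach 282 FPKM above 105 and 108 FPKM.

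Both Mahlavu transfectants were compared with each other to ask about the nuclear localization sequence. The sample label of the mutant names a mutated PSPC1 and the study's text names CT131, and the reads per gene did not show either construct. Directly compared, PSPC1-CT131 had 14 of 15 ER-arm members below Mut-NLS-CT131, with a median of −0.34 and DNAJB9 (−1.80, interval −2.32 to −1.85), MANF (−1.47, −1.46 to −1.31) and HSP90B1 (−1.39, −1.30 to −1.22) called lower. Of the ATF4 arm, CHAC1 (1.25, 1.06 to 2.27) and DDIT4 (1.07, 0.89 to 1.11) were called higher and DDIT3 (−1.27, −1.67 to −1.28) lower. CHAC1 averaged over the minimum here only through PSPC1-CT131, with 3.59 normalized FPKM against 0.928. Of all 12453 genes kept, 4.23% were called higher and 4.59% lower. The mitochondrial transcripts moved with this comparison, at 13342, 7064 and 12997 FPKM in sum in the Mahlavu libraries and 6 of 10 called lower in PSPC1-CT131 (median −1.11), and their part in the result was not tested. Across these genes the log2 fold changes followed the GC content of the longest transcript, with Spearman's rho of 0.57, and against mock rho was 0.57 for PSPC1-CT131 and −0.10 for Mut-NLS-CT131. The member transcripts run from 39.4% GC in SEL1L and 40.4% in DNAJB9 to 65.5% in SDF2L1 and 66.2% in CEBPB. With GC content and length taken out by a quadratic fit over all genes, the ER-arm median between both transfectants was −0.48 with 12 of 15 below 0, DNAJB9, MANF and HSP90B1 had values of −1.42, −1.57 and −1.06, and CHAC1 and DDIT4 were at 0.87 and 0.77. In the same fit all 15 members of the ER arm stayed above mock in Mut-NLS-CT131 with a median of 0.86 and 6 called, while CHAC1, DDIT4 and CRELD2 in PSPC1-CT131 against mock were at 0.90, 0.91 and 0.97, under 2-fold.

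PTK6 was added to wild-type PSPC1, with which it interacts, and to PSPC1-Y523F, which lacks the tyrosine, and these 2 comparisons share no library. Added to wild type, PTK6 came with 10 of 15 ER-arm members higher, a median of 0.07 and 0 called, beside 3.09% of all genes called higher and 1.87% lower. Added to PSPC1-Y523F, it came with 14 of 15 lower, a median of −0.70, and HYOU1 (−1.33, −1.49 to −1.38) and CRELD2 (−1.03, −1.25 to −1.06) called lower, beside 3.78% and 2.20% of all genes. XBP1 was the exception, at 0.02. The change was lower with Y523F than with wild type for all 15 members, with a median difference of −0.76 on the log2 scale, where 6051 of 11931 genes were lower and the median difference was −0.01. In the ATF4 arm, 7 of 17 members were lower with Y523F and the median difference was 0.16. PHGDH was the 1 ATF4-arm member called in each comparison, lower in both. With GC content and length taken out, the ER-arm medians were 0.02 and −0.71 and all 15 members were below 0 with Y523F. PSPC1-Y523F/PTK6 was the lowest SK-hep1 library for 12 of the 15 ER-arm members in FPKM as deposited and for 11 after quantile normalization. PSPC1-Y523F alone, the library it was compared with, was the highest for 6 and 7 of the 15. Against mock, HYOU1 and CRELD2 were at −0.70 and −0.38 in PSPC1-Y523F/PTK6 and at 0.63 and 0.65 in PSPC1-Y523F. The shares of all genes lowest or highest in these libraries were not computed. PSPC1 reads numbered 209 and 930 without and with PTK6 in the wild-type pair and 71 and 2539 in the Y523F pair. PSPC1 and PTK6 were thus both higher with PTK6 in each pair, PSPC1 by more with Y523F, and their shares cannot be told apart. Mitochondrial transcripts moved with the same comparison, from 16123 to 6579 FPKM in sum, and their part was not tested.

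HGF changed none of the 36 members by 2-fold in Huh-7 cells after 48 h. The members ranged from −0.47 in SLC7A5 to 0.67 in ASNS, and 11 of the 35 kept were above 0. DDIT3, at 185 and 245 reads, was next at 0.48. All 5 stress effectors and 5 of 6 serine and one-carbon enzymes were below 0. They ran from −0.02 in SESN2 down to −0.41 and from −0.07 in PHGDH down to −0.27. The median of all genes was −0.002, with 25th and 75th percentiles of −0.12 and 0.12. Whether these subgroups depart from all genes was not tested.

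Levels also differed between the cell lines. A member was said to differ between SK-hep1 and Mahlavu where the 5 and 3 libraries did not overlap and the medians were at least 2-fold apart. Of the 34 members kept, 4 were higher in SK-hep1 (MTHFD2, CHAC1, ATF3 and SESN2), where 13.7% of 12902 genes were, and 4 were higher in Mahlavu (PSAT1, NUPR1, STC2 and PSPH), where 13.1% were, shares of 4 in 34 that lie near those of all genes. All 8 were in the ATF4 arm, and a difference between the arms was not tested. The differences between medians were 5.77 for MTHFD2, −5.79 for PSAT1, −5.33 for NUPR1 and −3.10 for STC2 on the log2 scale, SK-hep1 minus Mahlavu. MTHFD2, PSAT1 and NUPR1 passed the expression minimum only through the line where they were high. Their medians in the other line lay near 0, so the size of these 3 differences depends on the 1 FPKM added. CHAC1 (2.03), ATF3 (1.91) and SESN2 (1.36) lost the separation in FPKM as deposited, where HERPUD1 and VLDLR were separated toward Mahlavu. In FPKM as deposited, Huh-7 cells, in which hepatocyte markers are expressed, stood above both other lines for all 3 serine synthesis enzymes, PHGDH, PSAT1 and PSPH. They also stood above both for XBP1, ALDH1L2, ATF4, SHMT2, ASNS, VLDLR, HSP90B1, DNAJB9, EDEM1 and SEL1L. They stood below both for SLC7A5, SLC3A2, CEBPB, DDIT4, MANF, SDF2L1, CRELD2 and PDIA6. No 2-fold minimum was set for these Huh-7 listings, and Huh-7 was not normalized jointly with the other lines. Margins ran from wide, as for XBP1 (at least 420.1 FPKM against at most 90.6), to small. VLDLR had at least 5.00 FPKM in Huh-7 against 4.79 in Mahlavu mock, and SLC3A2 at most 197 against 199.5 in Mut-NLS-CT131. The members of these listings were named after their values were seen, and the share of all genes that stood apart in this way was not computed.

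**Figure D3:**
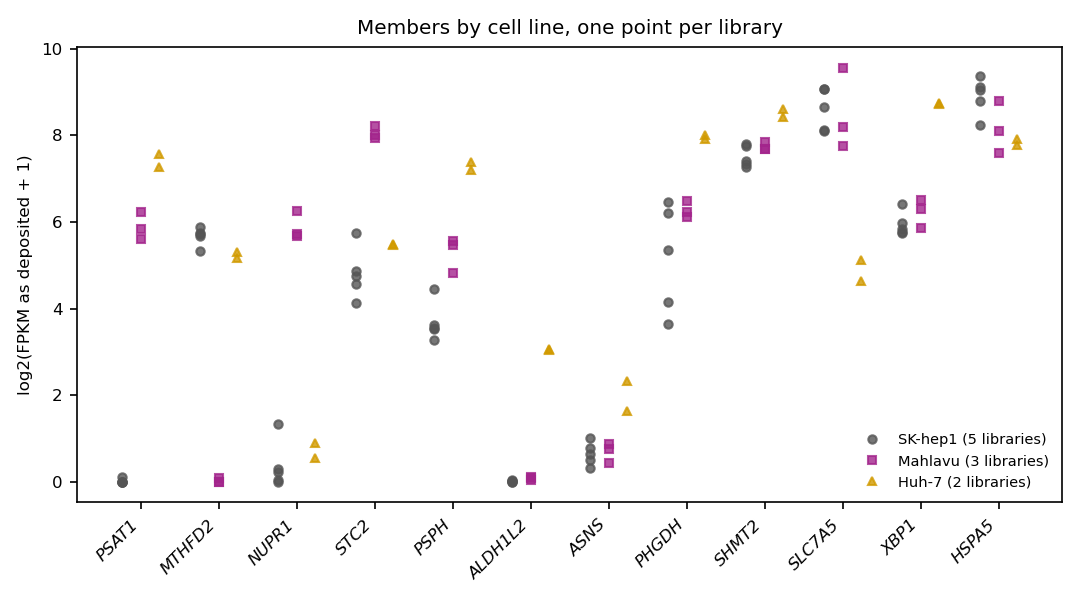
Log2 of FPKM as deposited + 1 for 12 members, 1 point per library, in SK-hep1 (5 libraries), Mahlavu (3) and Huh-7 (2). PSAT1 is at or near 0 in SK-hep1 and MTHFD2 in Mahlavu, while XBP1 is at 427 and 420.1 FPKM in Huh-7 and no higher than 90.6 FPKM elsewhere.

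Other genes of the pathway were read from lists written from general knowledge. The 12 tRNA synthetases, many of which ATF4 raises, had 12, 11, 11 and 12 members below mock in the 4 SK-hep1 transfectants. Their medians were −0.45, −0.52, −0.74 and −0.43, with 0 of 12 called in each, and in Mahlavu cells they were −0.01 and 0.08. Of 22 other ATF4 targets, INHBE, which encodes an activin subunit, was at 2.47 FPKM in Mahlavu mock and 16.1 in Mut-NLS-CT131, a log2 fold change of 2.48, and GDF15, a stress cytokine, was at 9.26 and 20.8 FPKM, a change of 1.295. The same list had a median of 0.16 in that library with JDP2 called lower. In SK-hep1 cells KLHL24 was called higher in 3 transfectants, by 1.33 in PSPC1, 1.65 in PSPC1/PTK6 and 1.45 in PSPC1-Y523F/PTK6, and SQSTM1, the autophagy receptor p62, was called lower in PSPC1 (−1.29) and PSPC1-Y523F (−1.55). SLC7A1, a transporter of cationic amino acids, was called lower in PSPC1 (−1.12) and PSPC1/PTK6 (−1.38), where GDF15 was called higher (1.175). ADM2, a peptide hormone, was called lower in PSPC1-Y523F (−1.199), and SLC6A9, a glycine transporter (1.26), and JDP2 (1.005) higher in PSPC1-Y523F/PTK6. In PSPC1-CT131 ADM2 was the 1 gene of the list called, at 1.19.

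The 39 other genes of ER folding, translocation and degradation had 31 of 39 above mock in Mut-NLS-CT131, where 6249 of 12425 genes were. Their median was 0.41 and 4 were called higher beside 3.16% of all genes, the largest KDELR3 (1.17), DERL3 (1.06) and ERO1B (1.04). In FPKM as deposited these went from 44.7 in mock to 93.9, from 4.69 to 9.66 and from 5.88 to 11.6. With 1 added on that scale, DERL3 and ERO1B were under 2-fold. In PSPC1-Y523F/PTK6 the same list had 31 of 38 below mock, beside 54.7% of all genes, and a median of −0.19. CANX (calnexin) was called lower there at −1.09, beside 1.59% of all genes. The 12 heat shock genes of other compartments, cytosolic ones and the mitochondrial chaperonins HSPD1 and HSPE1, had 11 of 12 below mock in Mut-NLS-CT131, beside 49.6% of all genes, a median of −0.36 and HSPA8 called lower at −1.56. In PSPC1-CT131 they had 3 called lower, HSPD1 (−1.10), HSPE1 (−1.10) and HSP90AA1 (−1.05), beside 3.16% of all genes. Changes in that comparison followed GC content, with rho of 0.57. In FPKM as deposited HSPD1 went from 872 in mock to 494 and HSP90AA1 from 632 to 336, both under 2-fold, and HSPE1 from 33.8 to 12.8. In SK-hep1 cells HSPA1B was called higher in PSPC1 (1.000), beside 3.38% of all genes. HSPA8 was called lower in PSPC1/PTK6 (−1.02), beside 3.32%. Of 13 genes for the stress sensors and the control of eIF2 alpha, EIF2AK2 (PKR) was called lower in both Mahlavu transfectants, at −1.54 in PSPC1-CT131 and −1.08 in Mut-NLS-CT131, and PPP1R15A (GADD34), the phosphatase subunit that ATF4 and CHOP raise, was called higher in SK-hep1 PSPC1/PTK6 at 1.29.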

How the data were processed

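Each of the 10 conditions was sequenced as 1 RNA-Seq library. For SK-hep1 and Mahlavu, the authors deposited read counts per gene, not normalized, and FPKM. For Huh-7 they deposited FPKM only. The submitters' notes name TopHat2 2.0, HTSeq 0.6.1, edgeR and GRCh38.p12. The paper's methods name hg18 and rRNA depletion, while the labels describe poly-T bead selection with an unstranded kit. The 8 lines without a gene were left out, and symbols come from GENCODE 29, at the same position for 35 of 36 members.

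Deposited FPKM follow from the count, the library total and 1 length per gene, so Huh-7 reads and totals were recovered from FPKM (100% whole within 0.02). That length equals the tables' length column for 38.1% of genes. Reads of 3114 and 2890 Huh-7 genes without such a length were not recovered. FPKM were quantile normalized over the 8 SK-hep1 and Mahlavu libraries and separately over both Huh-7 libraries, while the paper's methods state quantile normalization across all samples. Genes averaging 1 FPKM or more were kept, 1 was added, and changes of at least 2-fold were called. Counting intervals are exact 95% Clopper-Pearson intervals for ratios and Wilson intervals for levels, and PCR duplicates carry no identifiers. The members and lists were chosen with earlier results of these data known. Values in every library are printed for members called against a control, for ATF4, DDIT3, HSPA5 and XBP1, and for members that differ between SK-hep1 and Mahlavu; the others are given by their range, and genes of other lists only where called, at most the 3 largest. Alternatives were pseudocounts of 0.1 and 5, FPKM as deposited or scaled to the same sum, quantile normalization per line, no minimum, a minimum of 5 FPKM, TMM-scaled counts, GC content and length taken out, and a 1.5-fold threshold. Calculations were tested on simulated data and used Python 3.11.15, numpy 2.4.6, pandas 2.3.3, scipy 1.17.1, matplotlib 3.10.9 and edgeR 4.0.16 in R 4.3.3.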

Additional observations from a re-analysis of the deposited data

Results flagged for a closer look

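Between the addition of PTK6 to wild-type PSPC1 and to PSPC1-Y523F, 2 ER-arm members moved in opposite directions, both past counting error and at least 2-fold apart. Opposite signs alone were seen for 9 of 15 ER-arm members, 6 of 17 ATF4-arm members and 4682 of 11931 genes. The share of all genes that met the full rule was not computed. PDIA4 was at 0.35 with wild type and −0.82 with Y523F, a difference of −1.16 on the log2 scale. DNAJB9 was at 0.77 and −0.26, a difference of −1.03, and with GC content and length taken out at 0.59 and −0.31. The difference was not tested, since each condition is 1 library.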

How the results depend on the processing

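Each condition is 1 library, so no replicate could be left out, and no test was run, since the libraries of a line are different transfectants. No paired analysis was possible because no group has replicate numbers to share. With Mut-NLS-CT131, 15 of 15 ER-arm members lay above mock under all 9 alternatives to the main values. Its count of called members was 10, and 6 with FPKM as deposited and 6 with FPKM scaled to the same sum. Its ATF4-arm median was 0.040 with TMM-scaled counts. In PSPC1-CT131 the ATF4-arm median changed sign, to −0.019 as deposited and −0.027 at the same sum, and the ER-arm median was 0.14, 0.13 and, with GC content and length taken out, 0.43. Called members there numbered 2 as deposited, 1 at the same sum and 2 with GC content and length taken out. By construction, quantile normalization removes the shift of all genes that these scalings leave in place.

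In SK-hep1 cells the ATF4-arm median with PSPC1 was −0.16 without a minimum, −0.30 at 5 FPKM and −0.30 with GC content and length taken out. With PSPC1/PTK6 it was −0.32 at the same sum, −0.24 without a minimum and −0.68 with TMM, where the ER arm was at −0.31. With PSPC1-Y523F it was −0.32 at the same sum, −0.32 without a minimum and −0.45 with GC content and length taken out. With PSPC1-Y523F/PTK6 it was −0.63 as deposited and −0.57 at the same sum, and the ER arm was at −0.59, −0.61 and, with GC content and length taken out, −0.58. Called members with PSPC1 numbered 0 at a pseudocount of 5 and 2 each as deposited, at the same sum and with GC content and length taken out. With PSPC1-Y523F 1 was called at a pseudocount of 5. At 1.5-fold the counts were 7, 14, 9, 16, 11, 21 and 1 in the order of the 7 comparisons. The share of all genes at 1.5-fold was not computed, so these counts have no baseline. As deposited, 1 member was separated toward SK-hep1. Of 268 recomputed log2 fold changes of called members, 200 stayed within the counting interval, 68 did not and 0 changed sign, and the cause of these moves was not tested.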
